A study of Homo sapiens with 6 samples.

Results

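The collagen genes were followed in U251 cells, an established human glioma line, that were cultured for 24 h either without 6-shogaol (control, 3 libraries) or with it (3 libraries). 6-shogaol is a pungent, thiol-reactive ketone of dried ginger. The labels give its dose as 60 with the unit written "μm", taken here to be micromolar, and describe the cells of both groups as wild type. Whether replicates are separate cultures is not stated, and the p-values therefore reflect only how these 6 libraries vary, which could be technical variation. Members were all genes whose symbol is COL, a type number, A and a 1-digit chain number. The deposited table of 60612 genes held 44 of them, classed as 11 fibrillar, 9 basement membrane and 24 of other types. The basement membrane class held the type IV chains, COL7A1, COL15A1 and COL18A1, and COL17A1 was placed with the other types. Of the 44, 32 had a mean raw count of 10 or more over the 6 libraries and are described individually.

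Collagens are secreted proteins in which 3 alpha chains wind into a triple helix. Fibrillar collagens build the banded fibres of connective tissue, type IV collagens build the sheet-like network of basement membranes, and the other types link, anchor or decorate these structures or span the cell membrane. Normal brain has little fibrillar collagen outside its vessels and meninges, whereas glioma cells in culture often make collagen themselves.

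Libraries held 43516840 to 60018999 counts. On the second principal component, which held 20.6% of the variance of log2 CPM (counts scaled to library size with TMM), 6-shogaol replicate 1 stood at -61.8 and the other libraries between -22.6 and 33.9, so changes of a call without it are given for the collagen genes and the pathway genes described. On the first component (28.0% of the variance) 6-shogaol replicate 1 stood at 11.5. The controls lay there between -44.8 and -29.4, and 6-shogaol replicates 2 and 3 at 46.0 and 53.3. Among markers of the label, VIM and the stem cell factor SOX2 were abundant (6941 and 315 CPM in controls). The astrocyte filament gene GFAP was low and fell from 27.3 to 8.88 CPM, the intermediate filament gene NES fell from 772 to 577 CPM, the only called genes among these 8 markers (edgeR adjusted p = 0.00655 and 0.0484), and S100B and OLIG2 were below 1 CPM in both groups. Of fibroblast and pericyte markers, DCN, LUM, FAP and DPT averaged at most 0.264 CPM in either group. PDGFRB, also on that list, had 9.33 CPM in controls and 10.1 CPM with 6-shogaol. The 7 measured markers of the list summed to 217 to 227 CPM in controls and 214 to 237 CPM with 6-shogaol, most of it THY1. The 6 endothelial markers summed to 4.76 to 5.39 CPM in controls and 2.46 to 3.28 CPM with 6-shogaol, with PECAM1, TEK and CLDN5 at or near 0. CDH5 among them fell from 2.35 to 0.691 CPM (edgeR adjusted p = 0.019), and the part of this change in the collagen values was not tested. The 6 immune markers summed to 15.9 to 17.7 CPM in controls and 19.4 to 31.3 CPM with 6-shogaol, most of it CD68, with CD3E and CD79A at 0 and no marker called.

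Several collagen genes lie head to head, so their start regions are shown first. RefSeq promoter windows (GRCh38.p14) were found for 32 of the 44 members, 44 windows in all, and only the 250 bases upstream of each start were used. Capitals mark 3 motifs searched on both strands: the GC box GGGCGG, the CCAAT box CCAAT and the TATA box TATAAA. COL4A1 and COL4A2, which encode the chains of the common type IV trimer, start 127 bases apart on opposite strands, and the whole stretch between their starts (chr13:110307158-110307283, plus strand) is shown because both genes begin at its ends. COL4A3 and COL4A4, chains of a more restricted type IV trimer, start 419 bases apart, and their upstream windows (chr2:227164374-227164623, plus strand, and chr2:227164206-227164455, minus strand) overlap. COL12A1 (chr6:75206054-75206303, minus strand) and COL13A1 (chr10:69801656-69801905, plus strand) are shown because their transcripts were called changed.
COL4A1 to COL4A2 interval: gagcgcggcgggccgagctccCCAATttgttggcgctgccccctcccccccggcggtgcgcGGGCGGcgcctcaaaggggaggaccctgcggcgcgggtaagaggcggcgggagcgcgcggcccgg
COL4A3 upstream: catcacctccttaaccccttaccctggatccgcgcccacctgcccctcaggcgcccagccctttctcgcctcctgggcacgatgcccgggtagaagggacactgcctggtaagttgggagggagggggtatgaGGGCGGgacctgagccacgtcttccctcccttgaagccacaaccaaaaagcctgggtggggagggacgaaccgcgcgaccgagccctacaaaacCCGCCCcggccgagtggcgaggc
COL4A4 upstream: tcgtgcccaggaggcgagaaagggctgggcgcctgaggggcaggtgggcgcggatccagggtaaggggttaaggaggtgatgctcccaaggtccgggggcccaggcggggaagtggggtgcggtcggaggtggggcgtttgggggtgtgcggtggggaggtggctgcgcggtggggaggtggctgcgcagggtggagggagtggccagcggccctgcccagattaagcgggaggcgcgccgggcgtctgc
COL12A1 upstream: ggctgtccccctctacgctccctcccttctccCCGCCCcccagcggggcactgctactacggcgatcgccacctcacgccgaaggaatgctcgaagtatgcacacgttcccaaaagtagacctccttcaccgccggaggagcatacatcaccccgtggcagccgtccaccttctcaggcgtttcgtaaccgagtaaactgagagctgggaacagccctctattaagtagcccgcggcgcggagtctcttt
COL13A1 upstream: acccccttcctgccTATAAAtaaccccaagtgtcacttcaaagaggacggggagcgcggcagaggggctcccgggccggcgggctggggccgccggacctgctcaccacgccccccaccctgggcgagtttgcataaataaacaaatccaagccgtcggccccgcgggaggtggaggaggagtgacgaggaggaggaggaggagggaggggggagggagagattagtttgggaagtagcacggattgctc
The interval between COL4A1 and COL4A2 was 80.2% G and C and held 1 CCAAT box and 1 GC box. The COL4A3 window held 2 GC boxes, the COL4A4 window none of the 3 motifs, the COL12A1 window 1 GC box and the COL13A1 window 1 TATA box near its far end. Over the collagen windows, 24 of 44 (54.5%) held a GC box, 12 (27.3%) a CCAAT box and 8 (18.2%) a TATA box, against 42.6%, 32% and 10.7% of all 35116 windows. A match describes letters only, and some genes contribute more than 1 window.

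U251 cells carried a broad set of collagen transcripts. Ordered by the FPKM of their highest chain, types I, VI, V, XII, XVIII and IV led. By deposited FPKM, a level per gene length and library size, COL1A2 stood at 113 ± 15.1 in controls and 102 ± 15.3 with 6-shogaol (mean ± SD, n = 3). COL6A1 followed at 88.7 ± 4.33 and 83.3 ± 5.85, and COL6A2 at 75.2 ± 4.95 and 81.7 ± 13.8. These 3 genes made up 56.2% of the summed collagen FPKM. COL5A2, COL12A1, COL5A1, COL18A1 and COL4A2 came next with 21.9 to 43.4 FPKM averaged over all libraries, and then COL4A1, COL4A5, COL1A1 and COL9A2 with 4.64 to 12.4 FPKM. COL21A1, COL14A1, COL4A6, COL27A1, COL7A1, COL6A3 and COL11A1 had 1.21 to 3.73 FPKM, and the remaining 13 of the 32 had less than 1 FPKM. All collagens together took 0.502%, 0.548% and 0.588% of counts in control replicates 1, 2 and 3 and 0.557%, 0.453% and 0.457% in 6-shogaol replicates 1, 2 and 3. The groups overlapped in this share, treated replicate 1 lying among the controls and replicates 2 and 3 below them.

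The order of these levels depends on the gene length behind FPKM. The lengths implied by counts and FPKM were a median of 1.18 times the union of all annotated exons in GENCODE 29, which for genes with many transcript forms is far longer than the messenger RNA. Dividing CPM by the longest coding transcript (chosen after seeing the data) left COL1A2 first at 255 CPM per kilobase but put COL6A2 (143) above COL6A1 (127) and moved COL4A2 from the eighth place to the fourth (76.9). Fold changes between groups do not depend on this length.

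**Figure D1:**
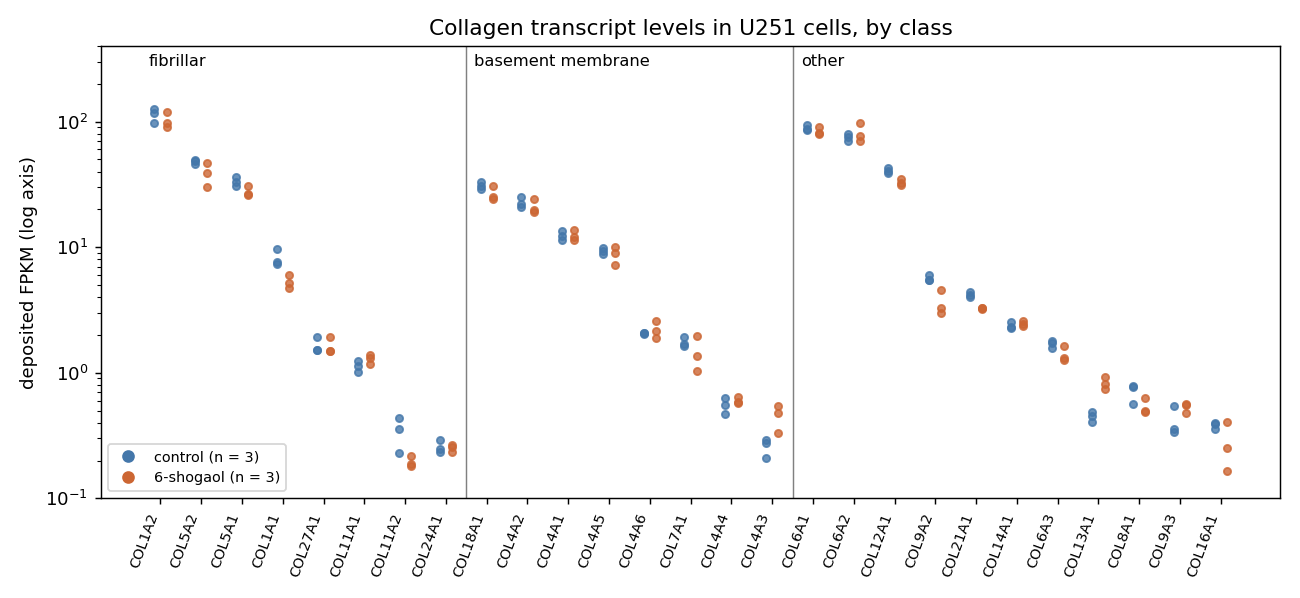
Deposited FPKM (log axis) of the 27 collagen genes averaging 1 CPM or more, ordered by class and level; blue points are the 3 control libraries and orange points the 3 libraries with 6-shogaol. COL1A2, COL6A1 and COL6A2 lie at the top, and levels within a class span more than the shifts between groups.

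Members with few or no counts make up the rest of the family, COL28A1 being described below. No count was found in any library for COL9A1, COL22A1, COL6A5, COL6A6 and COL15A1. A library with 0 counts allows up to 0.05 to 0.0689 CPM (3 counts, counting error only). In the count table the value 4 occurs 8318 times against 3413 for 3 and 1868 for 5, so 1 fragment may weigh about 4 counts, and the limit would then be 0.2 to 0.276 CPM. COL10A1, COL26A1, COL5A3, COL2A1, COL20A1 and COL23A1 had mean counts from 0.667 to 7.17, with 0 in at least 2 libraries each. Among the 32 described individually, COL3A1, the type III fibrillar chain that is abundant in fibroblasts, was also low. It had 116, 11 and 27 counts in controls and 31, 29 and 44 with 6-shogaol.

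Few collagen genes passed the test for a difference between groups, and those that moved were mostly lower with 6-shogaol. Of 32 members tested by edgeR's quasi-likelihood test 1 was higher, COL13A1, and 3 were lower, COL1A1, COL12A1 and COL28A1 (Benjamini-Hochberg adjusted p under 0.05 over all 19279 genes). In bulk RNA, fewer cells making a transcript and less of it per cell cannot be told apart. Those called were 12.5% of the members tested, against 3.38% of all genes tested (1.67% higher and 1.71% lower). The members were chosen with earlier results of these data known, so these shares are not an independent comparison. COL28A1 passed the filter on low counts through its controls alone, and without it 3 of 31 (9.68%) were called. Of 32 tested members 23 (71.9%) had a log2 fold change below 0 (22 of 31, 71%, without COL28A1), against 50% of all genes tested. Their median log2 fold change was -0.21 (-0.17 without COL28A1), against 0.00 for all genes tested. Among 27 members averaging 1 CPM or more the share below 0 was 70.4%, against 49.2%. At an unadjusted p under 0.05, 12 of the 32 (37.5%) passed, 10 of them lower (11 of 31, 35.5%, without COL28A1), against 20.4% of all genes tested. In those 27, all 3 treated libraries lay below all 3 controls in 8 genes (29.6%, against 15.5% of all genes at that level) and above them in 2 (7.41%, against 16.4%). Taking both directions together the share was 37% against 31.9%, which is near the background. The tested 32 are not the 32 with a mean count of 10 or more: COL25A1, a membrane collagen of neurons (0, 4 and 28 counts in controls, 23, 7 and 0 with 6-shogaol), failed the filter on low counts, and COL28A1 (mean count 8.83) passed it.

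**Figure D2:**
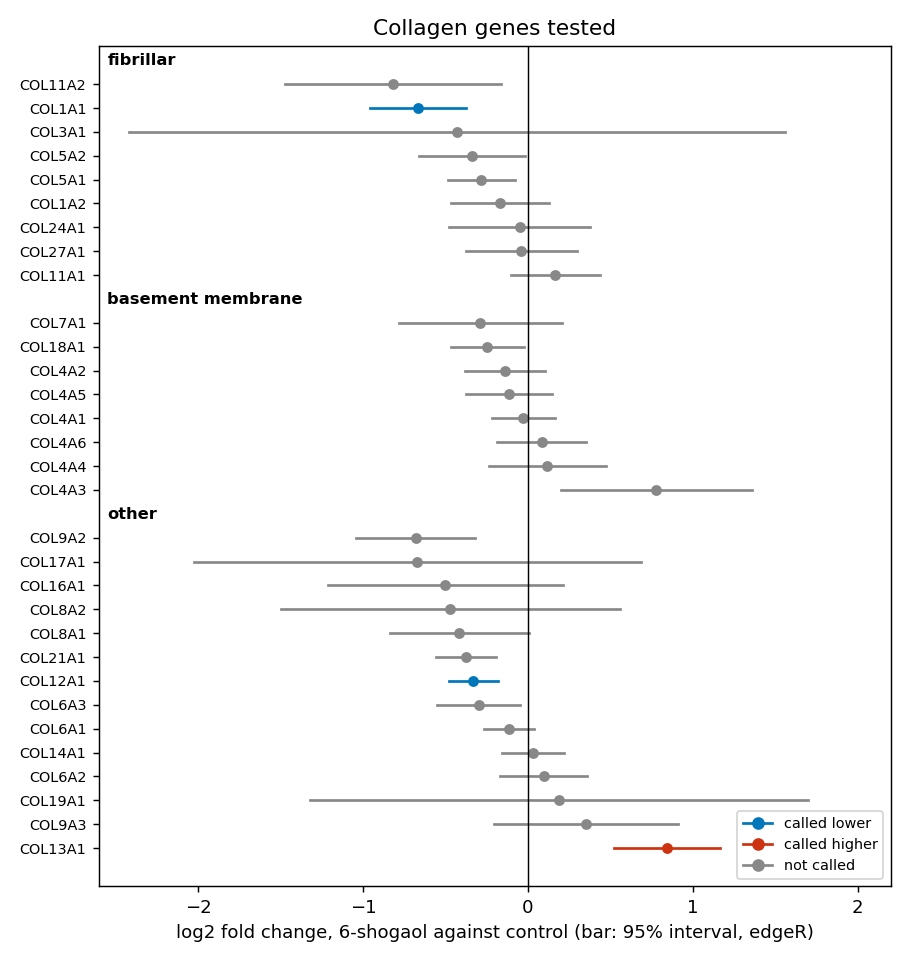
Log2 fold change of 6-shogaol against control from edgeR for 31 tested collagen genes (points) with 95% intervals (bars), by class; COL28A1, at 0 in all treated libraries, is left out. Most points lie left of 0, COL1A1 and COL12A1 are called lower and COL13A1 is called higher, and intervals are widest for COL3A1, COL19A1 and COL17A1.

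Among fibrillar collagens, COL1A1 fell and the other chains did not pass. COL1A1 (ENSG00000108821, chromosome 17, 50184101 to 50201632) encodes the alpha-1 chain of type I collagen, the main fibre former of bone, skin and tendon. Its level was 79.8, 82.8 and 103 CPM in the controls and 61.9, 50.7 and 54.7 CPM after 6-shogaol, each time in the order of replicates 1, 2 and 3, an order kept for all genes below. All treated libraries were below all controls, and the log2 fold change was -0.67 (SE 0.12, edgeR adjusted p = 0.0387), a fall from 88.5 ± 12.6 to 55.7 ± 5.68 CPM. COL1A2 (chromosome 7, 94394895 to 94431227), its partner chain and the most abundant collagen transcript here, had 1249, 1519 and 1609 CPM in controls and 1488, 1255 and 1148 CPM with 6-shogaol. Its groups overlapped (log2 fold change -0.17, 95% interval -0.47 to 0.13, edgeR adjusted p = 0.512). When single libraries were left out, COL1A1 was called only in the absence of 6-shogaol replicate 1 and in none of the other 5 fits (values from -0.75 to -0.54, edgeR adjusted p up to 0.137).

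Type V collagen, which starts and limits the width of type I fibrils, had lower values in both of its measured chains without passing. COL5A1 (chromosome 9, 134641803 to 134844843) stood at 408, 439 and 480 CPM in controls and at 396, 354 and 341 CPM with 6-shogaol. COL5A2 (chromosome 2, 189031898 to 189225312) had 400, 427 and 430 CPM in controls and 395, 265 and 336 CPM with 6-shogaol. Neither gene's groups overlapped, though treated replicate 1 came close to the lowest control in both. The log2 fold changes were -0.28 and -0.34 (edgeR adjusted p = 0.131 and 0.226). COL11A2, a minor fibrillar chain of cartilage, had 3.54, 1.85 and 2.83 CPM in controls and 1.7, 1.46 and 1.49 CPM with 6-shogaol, also without overlap (log2 fold change -0.82, edgeR adjusted p = 0.159). COL11A1, the alpha-1 chain of that type, leaned the other way at 0.17 (95% interval -0.10 to 0.43). The values of COL27A1 and COL24A1, which encode fibrillar collagens of the growing skeleton, were -0.04 and -0.05. COL3A1 had -0.43 with an interval from -2.42 to 1.56, and its sign depended on control replicate 1 (1.15 without it). Of 9 fibrillar genes tested 1 (11.1%) was called lower, against 1.71% of all genes tested. Of the 9, 8 (88.9%) had values below 0 (median -0.28), against the 50% of all genes given above.

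Basement membrane collagens showed no called change. Of 8 genes tested edgeR called 0, against 3.38% of all genes tested, and DESeq2 and limma on FPKM called 0. At an unadjusted p under 0.05 in edgeR, COL4A3 was higher and COL18A1 lower, 2 of 8, against 20.4% of all genes tested. The median log2 fold change of the 8 was -0.07. COL4A1 (chromosome 13, 110148963 to 110307157) stood at 202, 216 and 231 CPM in controls and at 229, 200 and 208 CPM with 6-shogaol. In RefSeq COL4A2 starts at the other end of the interval printed above, but its deposited start lies within the deposited span of COL4A1. COL4A2 (chromosome 13, 110305812 to 110513209) had 485, 513 and 573 CPM in controls and 538, 456 and 433 CPM with 6-shogaol. Both overlapped between groups, with log2 fold changes of -0.03 (95% interval -0.22 to 0.16) and -0.14 (-0.38 to 0.10). COL4A5 (chromosome X, 108439838 to 108697545), mutated in Alport syndrome, had 125, 131 and 138 CPM in controls and 136, 103 and 126 CPM with 6-shogaol. Its head-to-head neighbour COL4A6 was lower in level and had a log2 fold change of 0.08 (95% interval -0.19 to 0.36).

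COL4A3, whose product carries the Goodpasture antigen, was the basement membrane gene with the largest value. It stood at 2.32, 3.15 and 2.98 CPM in controls and at 3.45, 5.94 and 5.12 CPM with 6-shogaol, all treated libraries being higher. The log2 fold change was 0.78 (SE 0.25) and did not pass (edgeR adjusted p = 0.138). An antisense gene, AC097662.1, shares 1.32% of the COL4A3 exon length, and the strand used in counting is not given in the sources used here. COL4A4, on the other side of the shared start region, had 5.63, 6.64 and 7.42 CPM in controls and 6.66, 7.72 and 6.98 CPM with 6-shogaol (log2 fold change 0.12, 95% interval -0.24 to 0.47). COL18A1 (chromosome 21, 45405165 to 45513720), the heparan sulfate collagen that gives rise to endostatin, had 296, 311 and 333 CPM in controls and 299, 245 and 248 CPM with 6-shogaol. Its value of -0.25 did not pass (edgeR adjusted p = 0.204), but it was called without 6-shogaol replicate 1 (-0.34, edgeR adjusted p = 0.0477). SLC19A1, on the opposite strand, shares 16.4% of the COL18A1 exon length and had a mean of 1501 counts against 15566. COL7A1, which forms the anchoring fibrils of skin, had a value of -0.29 (95% interval -0.78 to 0.21).

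Among the other types, COL12A1 fell and COL13A1 rose. COL28A1, which passed the filter on low counts through its controls alone, is described separately. COL12A1 (ENSG00000111799, chromosome 6, 75084326 to 75206053) encodes a large collagen that binds to the surface of type I fibrils. It had 578, 604 and 633 CPM in controls and 500.1, 481 and 461 CPM with 6-shogaol, without overlap. The log2 fold change was -0.33 (SE 0.06, edgeR adjusted p = 0.0419). COL13A1 (ENSG00000197467, chromosome 10, 69801867 to 69964275) encodes a membrane-spanning collagen found at cell adhesions and at the neuromuscular junction. It stood at 5.82, 4.88 and 5.37 CPM in controls and at 10.5, 8.81 and 9.46 CPM with 6-shogaol. Every treated library was above every control, and the log2 fold change was 0.84 (SE 0.14, edgeR adjusted p = 0.0275), from 5.35 ± 0.474 to 9.6 ± 0.869 CPM. Both calls held in only 1 of the 6 fits without 1 library, that without 6-shogaol replicate 1. Without any other library the edgeR adjusted p rose to at most 0.156 for COL12A1 and 0.12 for COL13A1. COL12A1 was not called by limma on FPKM (adjusted p = 0.0536 and 0.0549), and neither COL12A1 nor COL1A1 without the filter on low counts (edgeR adjusted p = 0.0744 and 0.0512).

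COL28A1, a little-studied collagen of peripheral nerve, had 18, 16 and 19 counts in controls and 0 in all 3 treated libraries (edgeR adjusted p = 0.0492). It passed the filter on low counts only through the controls, so a call had to be a fall. Against a limit of 3 counts per treated library its level was at least 5.16-fold lower, but at 12 counts, for 4 counts a fragment, the bound is 1.29-fold. The call was lost in every fit without 1 library (edgeR adjusted p from 0.0628 to 0.184).

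COL21A1, a collagen that associates with fibrils, and COL9A2 had lower values just short of the threshold. COL21A1 stood at 34.4, 36.3 and 32.9 CPM in controls and at 25.9, 27.1 and 26.8 CPM with 6-shogaol, with little spread in either group. Its log2 fold change was -0.38 (SE 0.08, edgeR adjusted p = 0.0509), and it was called in 7 of 15 alternative fits (other scalings, a stricter filter, limma, counts divided by 4 and DESeq2, with the lowest adjusted p, 0.0112, in DESeq2) but in 0 of the 6 fits without 1 library. COL9A2, a chain of the cartilage collagen IX, had 27.9, 27.8 and 30.0 CPM in controls and 22.2, 15 and 16.2 CPM with 6-shogaol. Its groups did not overlap, and its value of -0.68 (SE 0.15) missed the threshold in edgeR (adjusted p = 0.0638) and passed it in DESeq2 (adjusted p = 0.00204) and without 6-shogaol replicate 1 (edgeR adjusted p = 0.0165). COL14A1, a fibril-associated collagen of the same group, differed little (0.03, 95% interval -0.16 to 0.22). COL16A1 had -0.50, COL9A3 0.35 and COL19A1 0.19, none of which passed. TCFL5, on the opposite strand with a mean of 1464 counts, shares 0.93% of the exon length of COL9A3, whose own mean was 147 counts. Likewise LMBRD1, on the opposite strand with a mean of 1542 counts, shares 0.82% of the exon length of COL19A1 (mean 34.5 counts).

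Type VI collagen, the beaded filament around many cells, had no called chain, and the values of its chains differed in sign. COL6A1 (chromosome 21, 45981769 to 46005050) had 543, 552 and 587 CPM in controls and 549, 500.1 and 505 CPM with 6-shogaol (log2 fold change -0.11, 95% interval -0.27 to 0.04). Its neighbour COL6A2 had 447, 482 and 503 CPM in controls and 596, 449 and 486 CPM with 6-shogaol, the highest library being treated replicate 1. COL6A2 had a value of 0.10 (95% interval -0.17 to 0.36), and of -0.030 without that library. COL6A3 had 39.9, 37.0 and 41.0 CPM in controls and 36.5, 30.5 and 28.9 CPM with 6-shogaol, a value of -0.30 that did not pass although the groups did not overlap (edgeR adjusted p = 0.18). The short-chain network collagens COL8A1 and COL8A2 had -0.42 and -0.47 and the hemidesmosome collagen COL17A1 -0.67, none of which passed. Of 15 genes of other types tested 1 was higher and 2 were lower (20% called, against 3.38% of all genes tested). The median of the 15 was -0.33. Without COL28A1 1 was higher and 1 lower of 14 (14.3%), with a median of -0.31.

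**Figure D3:**
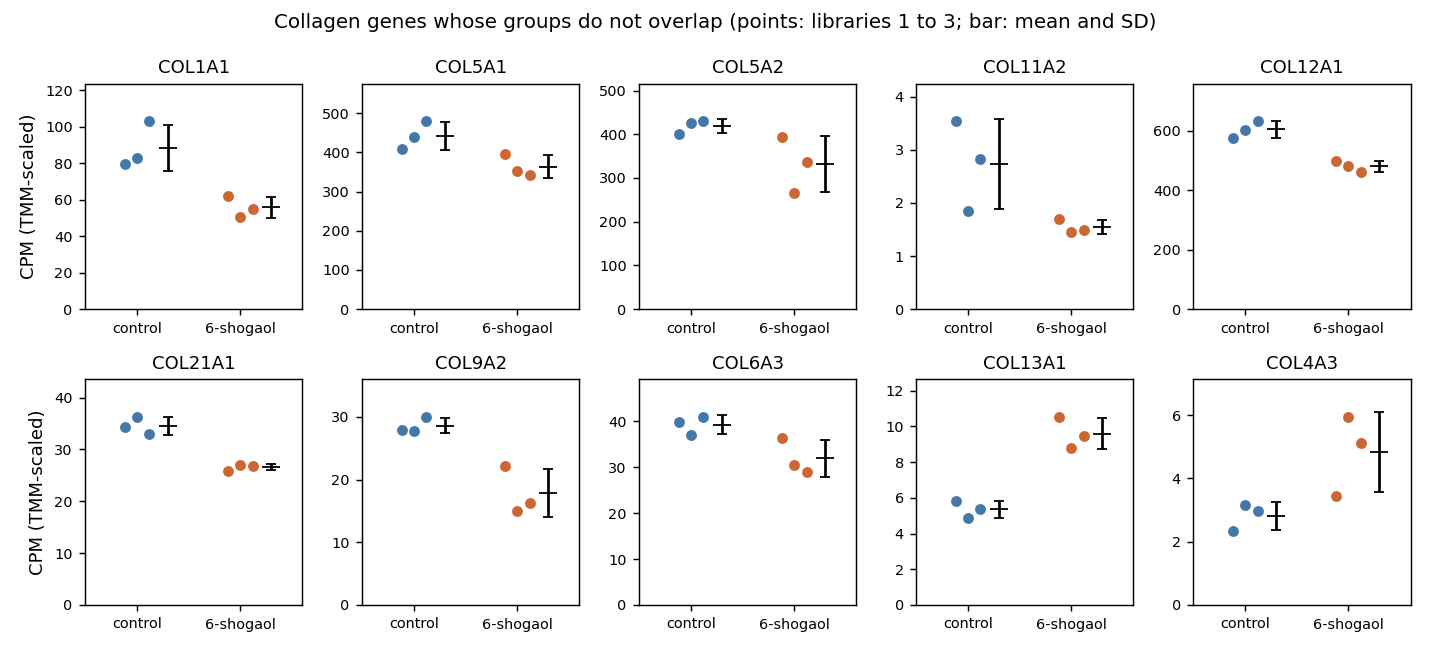
TMM-scaled CPM per library (points, libraries 1 to 3 from left to right) with mean and SD (bars) for the 10 collagen genes averaging 1 CPM or more whose groups did not overlap; each panel has its own axis starting at 0. In 8 panels the treated libraries lie below the controls and in 2, COL13A1 and COL4A3, above them.

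Chains that join in 1 trimer, or share a start region, were compared as ratios of FPKM within each library, without a test. The usual type I trimer holds more alpha-1 than alpha-2 chains, but the transcript of the alpha-2 chain was in large excess here. COL1A2/COL1A1 was 13.1, 15.3 and 13 in controls and 20.1, 20.7 and 17.5 with 6-shogaol, higher in all treated libraries. Per longest coding transcript the same ratio was 20.6 in controls and 28.9 with 6-shogaol on average. COL6A2/COL6A1 was 0.819, 0.870 and 0.854 in controls and 1.08, 0.894 and 0.957 with 6-shogaol, again without overlap. COL6A3/COL6A1 averaged 0.0191 in controls and 0.0168 with 6-shogaol, so that the transcript of the third chain of this trimer was far below the other two.

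COL4A2/COL4A1 differed little, with 1.83, 1.80 and 1.88 in controls and 1.79, 1.73 and 1.58 with 6-shogaol, although the treated values were all below the controls. COL4A4/COL4A3, added after seeing the data, was 2.25, 1.91 and 2.25 in controls and 1.74, 1.17 and 1.23 with 6-shogaol, a treated mean 0.647 times the control mean. The other head-to-head pair, COL4A5/COL4A6, averaged 4.53 and 3.96, with the highest treated value meeting the lowest control. COL5A2/COL5A1 averaged 1.45 and 1.39 and COL8A2/COL8A1 0.172 and 0.156, with overlap.

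**Figure D4:**
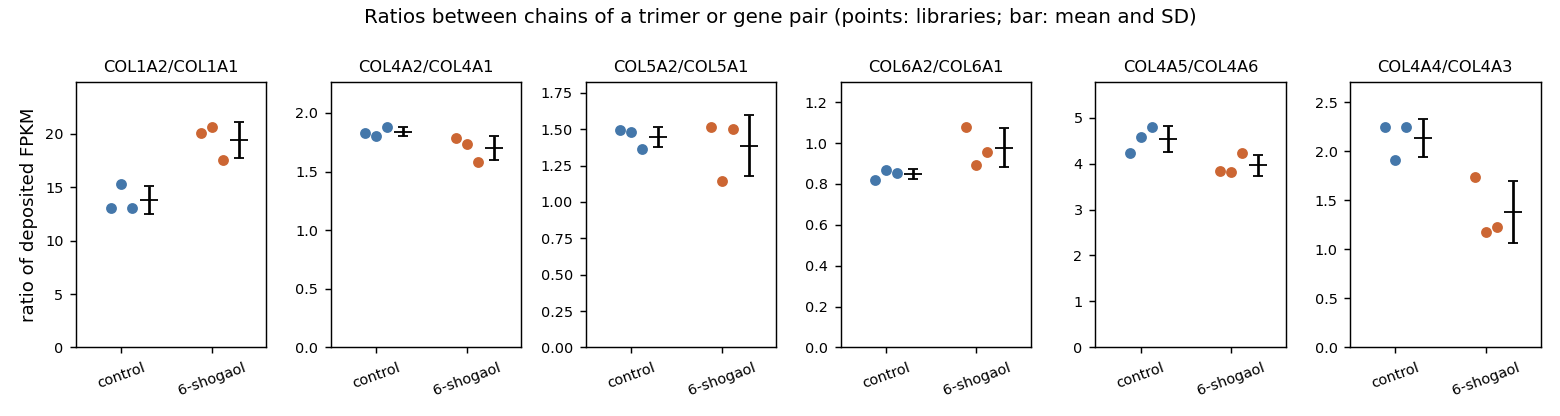
Ratio of deposited FPKM between paired collagen chains in each library (points) with mean and SD (bars), each axis starting at 0. COL1A2/COL1A1 and COL6A2/COL6A1 are higher in all treated libraries, COL4A2/COL4A1 and COL4A4/COL4A3 lower, and COL5A2/COL5A1 overlaps.

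Genes that fold, export, process, crosslink and bind collagen changed in both directions. Of 58 tested genes in 5 lists edgeR called 5 higher and 4 lower (15.5%, against 3.38% of all genes tested). The lists were chosen with earlier results of these data known, so these shares are not an independent comparison. Among 17 folding and modification genes 2 rose and 1 fell (median 0.12). P4HA1 and P4HA2, catalytic subunits of the prolyl hydroxylase that makes the hydroxyproline on which the helix depends, rose. P4HA1 had 162, 155 and 156 CPM in controls and 189, 230 and 225 CPM with 6-shogaol (log2 fold change 0.44, edgeR adjusted p = 0.0456). P4HA2 had 54.7, 50.5 and 55.3 CPM in controls and 83.1, 74.8 and 81.6 CPM with 6-shogaol (0.58, edgeR adjusted p = 0.0151). COLGALT2, which adds galactose to hydroxylysine, fell from 64.9, 71.4 and 69.8 CPM to 43.6, 37.8 and 39.5 CPM (-0.77, edgeR adjusted p = 0.00828). The collagen chaperone SERPINH1 had a value of -0.25 and did not pass (edgeR adjusted p = 0.22). FKBP10 (0.34) and COLGALT1 (0.31) had larger values in the other direction and did not pass either (edgeR adjusted p = 0.113 and 0.0797).

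Of 10 export genes SEC24D, a cargo selector of the COPII coat needed for procollagen, rose (0.34, edgeR adjusted p = 0.0366), while the cargo receptor gene MIA2 (0.41) and the GTPase gene SAR1A (-0.41, with 1 treated library at 30.9 CPM and the other libraries at 85.1 to 95.1) did not pass. Among 12 cleavage and crosslinking genes LOXL1, a lysyl oxidase, fell from 194 ± 13.3 to 130.2 ± 18.2 CPM (-0.58, edgeR adjusted p = 0.0424), and LOX, with 0.52, did not pass (edgeR adjusted p = 0.0564). LOX was called in 6 of 15 alternative fits, among them that without 6-shogaol replicate 1 (0.61, edgeR adjusted p = 0.0319) and DESeq2 (adjusted p = 0.00265). Of 8 receptors the collagen-binding receptor kinase DDR2 rose from 44.1, 40.7 and 40.4 CPM to 66.9, 78.5 and 73.2 CPM (0.80, edgeR adjusted p = 0.00827). Its relative DDR1 had -0.48 and did not pass (edgeR adjusted p = 0.141), but it was called without 6-shogaol replicate 1 (-0.65, edgeR adjusted p = 0.0467) and by DESeq2 (adjusted p = 0.0237). Of 11 matrix partners THBS1 (-0.62), a thrombospondin that activates TGF-beta, and the glioma matrix protein TNC (-0.56) fell, and THBS2 rose (0.48). When single libraries were left out, DDR2, COLGALT2 and THBS1 stayed called in 5 of 6 fits and were not called in the absence of control replicate 2. P4HA2 was called in 2 of these 6 fits, P4HA1, SEC24D, LOXL1 and TNC in 1 (in the absence of 6-shogaol replicate 1) and THBS2 in 0.

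**Figure D5:**
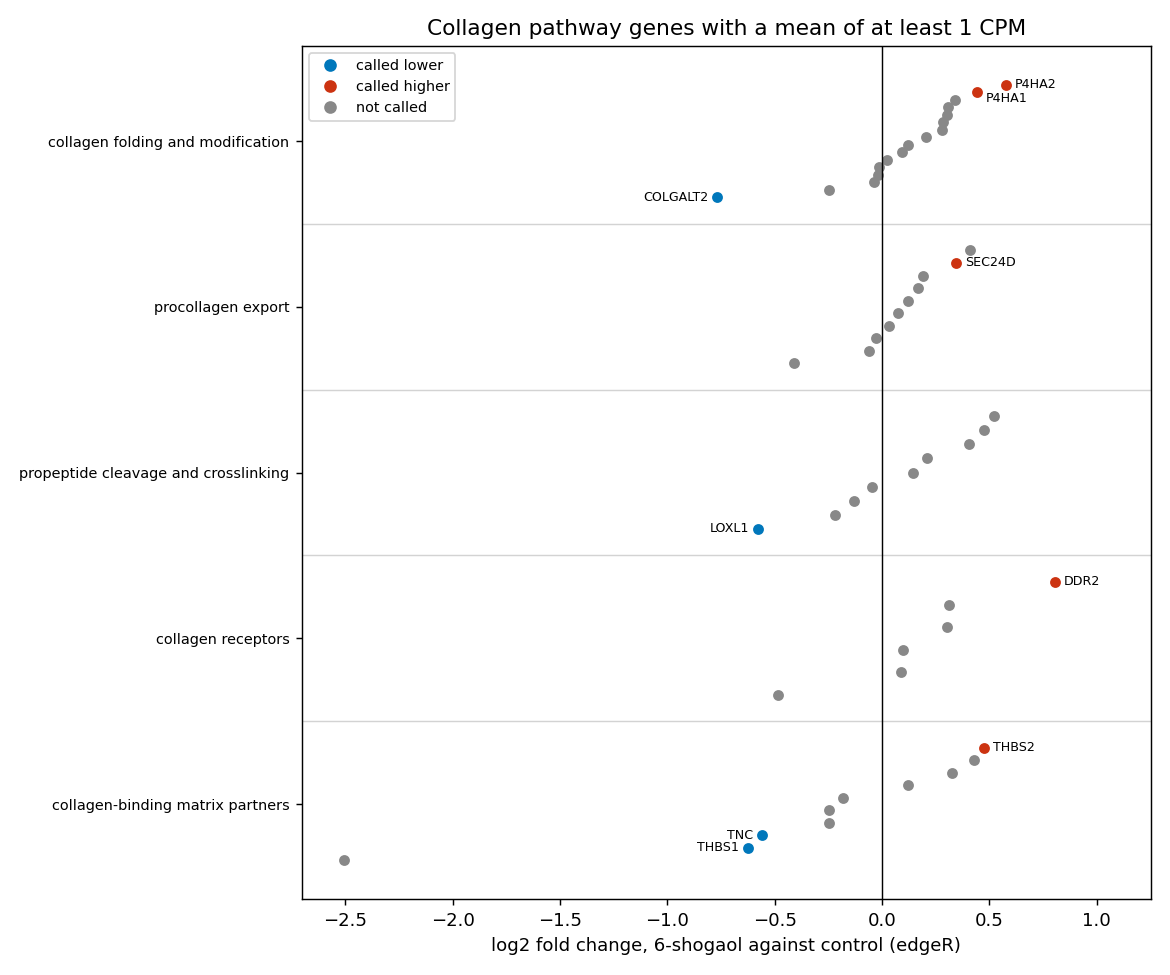
Log2 fold change of 6-shogaol against control (edgeR) for genes of 5 collagen pathway lists averaging 1 CPM or more, 1 point a gene, with called genes coloured and named. Called genes lie on both sides of 0 in the folding and partner lists, and the far-left point is POSTN (-2.50), which did not pass (edgeR adjusted p = 0.101).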

How the data were processed

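Raw counts per gene for each of the 6 libraries were deposited by the authors, and FPKM in a second table, per the file headers, together with symbols and the same counts (0 differences). No aligner, counter or strand setting is given in the sources used here. The builds named are, per the submitters' processing notes, GRCm38 and mm10, but all 60612 identifiers are human, and all 44 collagen genes are in GENCODE 29 on GRCh38, 12 with the same start and end. Coordinates of genes are the deposited ones. The table held 0 columns of other samples.

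The test on counts was that of edgeR 4.0.16 under R 4.3.3 (filterByExpr, TMM, glmQLFit, glmQLFTest, Benjamini-Hochberg over 19279 genes, threshold 0.05, which gave 322 higher and 329 lower genes). SEs were derived from the F statistic of each gene. The design had 2 groups of 3 libraries and no covariate. The scripts were tested on simulated counts. Other settings tried were DESeq2 1.42.0, RLE or upper-quartile scaling, no or a stricter filter, a replicate block, leaving out single libraries, limma 3.58.1 on log2(FPKM + 1) or log2(FPKM + 0.1), and, added after seeing the data, counts divided by 4 and shares without COL28A1.

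Members and gene lists were chosen with earlier results of these data known. Per-library values are given for called members, the 12 with the highest mean FPKM, and those averaging 1 CPM or more without overlap between groups, 18 in all (COL4A4, COL3A1 and COL25A1 were added after their values were seen); of each pathway list the called genes and the 2 with the largest change at 5 CPM or more are named. SERPINH1, FKBP10 and COLGALT1 are named outside this rule. Replicate numbers were not used as pairs. The marker RGS5 was left out because its symbol has more than 1 row.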

Additional observations from a re-analysis of the deposited data

How the results depend on the processing

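Collagen calls were few and, like calls over all genes, depended on which library was left out. RLE and upper-quartile scaling, DESeq2, the filter of 1 CPM and counts divided by 4 gave 1 higher and 3 or 4 lower collagen genes, with COL21A1 lower in each of these fits, COL9A2 lower in DESeq2, and COL28A1 among them only under the other 2 scalings (it had no adjusted p in the other 3 fits). Over all genes those fits called 303 to 769 higher and 338 to 792 lower, against 322 and 329 in the main fit. With no filter 0 collagen genes were lower (10 at unadjusted p under 0.05) and the pathway genes called higher numbered 2. That fit called 183 higher and 195 lower of all 32031 genes tested. DESeq2 called 10 pathway genes higher, and 769 higher and 792 lower of all 32031 genes tested. Limma on log2(FPKM + 1) or log2(FPKM + 0.1) called 0 collagens higher (0 at unadjusted p under 0.05), since COL13A1 lies under the FPKM minimum and was not tested there. Without 1 library the collagens called numbered 0 to 1 higher and 0 to 4 lower, and the pathway genes 0 to 6 higher and 0 to 5 lower. Over all genes, the fit without 6-shogaol replicate 1 called 480 higher and 532 lower. Each other fit without 1 library called 44 to 81 of all genes higher and 54 to 96 lower. With the replicate block edgeR called 0 collagen genes higher and 0 lower (2 and 9 at unadjusted p under 0.05), 0 pathway genes higher and 0 lower (15 and 10), and 3 of all genes. Deviations of same-numbered libraries correlated at -0.04 to 0.06, and 2 of 6 libraries correlated best with their own number, so the numbers were not taken as pairs. Over 443 values of single collagens under an alternative 390 kept direction and side of the threshold. Direction changed in fits without 1 library for COL3A1 (-0.92 to 1.15), COL19A1 (-0.22 to 0.57), COL27A1 (-0.17 to 0.083), COL24A1 (-0.11 to 0.053), COL4A1 (-0.084 to 0.024), COL6A2 (-0.030 to 0.18) and COL4A6 (-0.032 to 0.17), and for COL3A1 with the block (0.26), none of them called in any fit. The cause of these changes in calls and direction was not tested. Fits without a library or with the block have fewer degrees of freedom than the main fit.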
